A study of Rattus norvegicus with 8 samples.

Results

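The mitochondrial respiratory chain passes electrons from NADH and succinate to oxygen through complexes I to IV, and complex V, the ATP synthase, uses the proton gradient that complexes I, III and IV build to make ATP. Most subunits are encoded in the nucleus, and their mRNAs are translated in the cytosol and imported. Resting lymphocytes draw much of their ATP from this chain. A few subunits have isoforms that muscle, testis or lung favor, and some isoforms, such as Cox4i2 and Ndufa4l2, are known to rise in cells under low oxygen.

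The genes described are the 86 of 14217 genes with annotated probe sets whose symbols name subunits and Nduf assembly factors of this chain (symbols starting with Nduf followed by a, b, c, s or v, Uqcr, Cox4 to Cox8, or Atp5, and Sdha to Sdhd). They were chosen by name and not by their values. They comprised 36 genes named as complex I subunits, 6 complex I assembly factors (Ndufaf), 4 subunits of complex II, 7 of complex III, 17 of complex IV and 16 of complex V. Ndufa4, counted here with complex I by its name, is now regarded as a subunit of complex IV, and the 17 complex IV genes include the pseudogene Cox6c-ps1. Atp5if1, counted with complex V, encodes the inhibitor of the enzyme. Cox7a2l, counted with complex IV by its name, was not taken as one of its structural subunits. The subunits encoded in mitochondrial DNA were not analysed here.

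Transcripts were measured in PBMCs (mononuclear cells of peripheral blood, that is lymphocytes with monocytes) of 2 healthy male Brown Norway rats about 180 days old, BN1 and BN2, cultured for 6 h with 20% plasma and hybridized to 8 Affymetrix rat expression arrays, 1 per culture. The 4 plasmas were autologous Brown Norway plasma, and plasma of male Sprague-Dawley rats at age PD114 (postnatal day) that had breathed 21% oxygen (control, pool of 8), or intermittent hypoxia at 5% oxygen (5% IH, pool of 5) or 10% oxygen (10% IH, pool of 3) on postnatal days 2 to 6, for 1 h a day. The cells themselves were thus never exposed to the neonatal hypoxia. Because only 1 pool of each plasma was made, replicate error here reflects the 2 reporter rats and neither plasma donors nor pools. For autologous plasma, the labels of either array mention BN1 as well as BN2, and whose plasma each culture received is not certain. The labels gave no separate cultures beyond these, and 2 arrays against 2 cannot reach an exact 2-sided permutation p under 0.333.

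Values are log2 expression values, and a log2 ratio is the difference between 2 group means. T cell markers had a mean log2 value of 9.35 to 9.52 on all 8 arrays. Monocyte markers (Cd14, Csf1r, Lyz2, Cd68 and Itgam) had a mean of 5.50 and 5.93 on the autologous arrays and of 8.32 to 8.75 on the other 6, and all 5 were higher with control than with autologous plasma, by a median log2 ratio of 2.45. In whole cultures, fewer cells of a type and less RNA per cell cannot be told apart. The BN1 arrays of 10% IH and of autologous plasma stood apart: 29 and 28 of the 86 genes, respectively, had their highest value there, against 17.5% and 19.7% of all genes.

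What these genes share beyond their names was first looked for in their promoters. RefSeq windows (build GRCr8) of 250 bases before and 50 bases after the annotated start were given for 78 of the 86 genes. The core of the site for NRF1, a transcription factor known for respiratory chain genes (GCGCATGCG, either strand), lay in the windows of 7 of the 78 genes (8.97%), against 2.83% of the 11700 genes of the array with a window. The site of GABPA, also called NRF2 (CCGGAAG), lay in 22 (28.2%), against 15.1%, and the YY1 site (AAGATGGCG) lay in 11 (14.1%), against 3.14%. The core of the hypoxia response element (ACGTG) lay in 20 (25.6%), against 24.1%. The CREB site (TGACGTCA) lay in 3 (3.85%), against 2.85%. The shares of the first 3 motifs were higher than over the array, and that of the hypoxia core was close to it. A match is a description of the sequence alone. The lines that follow give the 250 bases before the start of 4 genes, with the matched letters in capitals. Of these, Sdhd, Cox4i1 and Cox5a are taken up in the results, and Uqcrc1 is shown for its NRF1 core. Uqcrc1 carries the NRF1 core (bases -39 to -31, counted back from the start), Sdhd the GABPA site on the opposite strand (-48 to -42), and Cox4i1 (-49 to -45) and Cox5a (-197 to -193) the hypoxia core. The full windows of Uqcrc1 and Cox4i1 also hold a YY1 site and a GABPA site, respectively, which do not lie wholly within the printed bases.
Uqcrc1, chr8:118467973-118468222, plus strand: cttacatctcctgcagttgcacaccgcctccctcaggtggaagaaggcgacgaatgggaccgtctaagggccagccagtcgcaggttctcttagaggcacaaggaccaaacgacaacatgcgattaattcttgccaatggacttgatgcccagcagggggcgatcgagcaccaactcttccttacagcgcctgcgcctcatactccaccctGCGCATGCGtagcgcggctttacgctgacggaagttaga
Sdhd, chr8:59850642-59850891, minus strand: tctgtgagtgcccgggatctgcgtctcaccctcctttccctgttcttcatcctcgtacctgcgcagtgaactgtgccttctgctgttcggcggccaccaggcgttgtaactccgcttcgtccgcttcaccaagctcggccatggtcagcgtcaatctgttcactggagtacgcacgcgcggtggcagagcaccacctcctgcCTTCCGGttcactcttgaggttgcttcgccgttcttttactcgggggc
Cox4i1, chr19:65630133-65630382, plus strand: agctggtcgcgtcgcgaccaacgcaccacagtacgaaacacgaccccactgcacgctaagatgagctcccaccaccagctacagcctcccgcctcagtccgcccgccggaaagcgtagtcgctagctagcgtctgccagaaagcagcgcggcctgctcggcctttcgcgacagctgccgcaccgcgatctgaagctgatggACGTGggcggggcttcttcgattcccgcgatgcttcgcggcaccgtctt
Cox5a, chr8:66818034-66818283, plus strand: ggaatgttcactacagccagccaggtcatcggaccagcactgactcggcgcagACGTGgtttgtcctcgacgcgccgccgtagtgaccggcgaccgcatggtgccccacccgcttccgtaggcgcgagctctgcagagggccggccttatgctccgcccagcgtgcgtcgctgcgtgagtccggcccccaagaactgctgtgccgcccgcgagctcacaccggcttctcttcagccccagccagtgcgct

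By their range over the 8 arrays, respiratory chain transcripts varied less than genes at large, but not on every array. The range of a gene over all 8 arrays (highest minus lowest log2 value) had a median of 0.25 over the 86 genes and of 0.32 over all genes. It stayed under 1.2-fold (0.263 on the log2 scale) in 45 of the 86 (52.3%), against 34.5% of all genes. Among the 8531 genes above the 40th percentile of mean level, to which 77 of the 86 belong, the share was 45.9%. Level was not matched: the median percentile was 88.0 for the 86 and 70.0 for the 8531. On the BN1 array of 10% IH plasma, the median absolute deviation from a gene's mean over the 8 arrays was 0.094 for the 86. For all genes and for the 8531 it was 0.077. Over the 6 arrays without the BN1 arrays of 10% IH and autologous plasma, an alternative added after seeing the data, the range stayed under 1.2-fold in 74 of the 86 (86.0%). The shares were 52.1% of all genes and 67.3% of those above the 40th percentile. The left-out arrays held the highest value of 29 and 28 of the 86, against 17.5% and 19.7% of all genes. Leaving them out thus narrows the ranges of the 86 more by construction, and these shares are no measure of steadiness. The range was under 1.2-fold in 24 of 36 complex I subunits and 5 of 7 complex III genes. It was so in 1 of 4 complex II genes, 7 of 17 complex IV genes, 8 of 16 complex V genes and 0 of 6 complex I assembly factors. Level differed between the complexes: 10 of the 17 complex IV genes lay above the 40th percentile, against 35 of 36 complex I subunits and 7 of 7 complex III genes. The dim complex IV genes all had wider ranges, from 0.35 (Cox7b2) to 0.68 (Cox6b2). The widest ranges were those of dim probe sets: Ndufaf1 (0.76), Cox6b2 (0.68), Cox6a2 (0.67) and Cox6c-ps1 (0.65), all under the 40th percentile. The narrowest were those of Ndufa7 (0.08), Ndufa1 (0.09) and Atp5f1e (0.09), which encode subunits of complexes I and V. These genes with the widest and narrowest ranges were chosen after their values were seen.

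**Figure D1:**
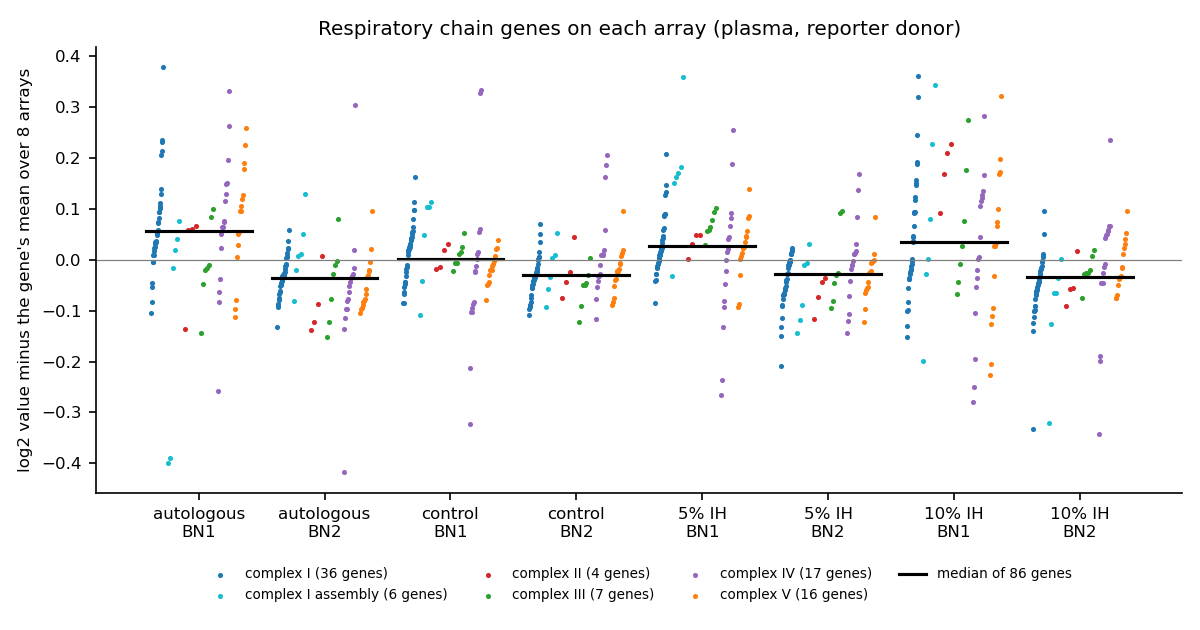
Each point is 1 of the 86 genes on 1 array, as its log2 value minus its mean over the 8 arrays (y axis), by plasma and reporter donor (x axis) and colored by complex; the black line is the median of the 86 genes. Medians lie between -0.035 and 0.057, above 0 on the 4 BN1 arrays and below 0 on the 4 BN2 arrays, and points spread most on the BN1 arrays of autologous and 10% IH plasma.

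The first comparison, control with autologous plasma, asks how PBMCs respond to Sprague-Dawley control plasma. This plasma was foreign to the cells, and its donors differed from the reporter rats in strain, age and housing. These differences cannot be told apart here. Over the 86 genes the median log2 ratio was -0.023 (36 higher, 50 lower; standard deviation over genes 0.103), beside -0.0075 over all genes (standard deviation 0.275). By complex, the medians were -0.030 for complex I subunits, 0.035 for complex I assembly factors, 0.021 for complex II, 0.021 for complex III, -0.031 for complex IV and -0.042 for complex V. The respiratory chain genes thus differed little, next to monocyte markers that were higher by 2.45, and the part of that shift in these ratios was not tested. Without the BN1 array of autologous plasma the median of the 86 was 0.030, and without the BN2 array of autologous plasma it was -0.077, so its direction rests on single arrays.

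By the study's criterion (a 1-sided Rank Product p under 0.05 and a change of more than 1.2-fold), 1 of the 86 was higher with control plasma and 0 were lower, against 6.16% of all genes higher and 3.97% lower. The 1 gene was Cox6a2, a heart and muscle isoform of a complex IV subunit, whose probe set was dim (under the 40th percentile of level). Its log2 values were 4.42 (BN1) and 3.98 (BN2) with autologous plasma and 4.46 and 4.60 with control plasma. The 2 groups did not overlap, but the value of BN2 with autologous plasma set the difference: the log2 ratio was 0.33 (standard error 0.165, limma adjusted p = 0.582), with 0.037 in BN1 and 0.62 in BN2, and 0.11 without that array. In limma, with adjustment over all probe sets, 0 of the 86 had an adjusted p under 0.05, against 2.44% of all genes, and 1 (Cox5a) had an unadjusted p under 0.05, against 10.6%. The 2 groups did not overlap in 30 of the 86 (17 higher, 13 lower), or 34.9%, against 40.6% of all genes. For 30 of the 86 (34.9%) the 95% interval of the log2 ratio lay wholly inside 1.2-fold in either direction, against 20.7% of all genes. Among genes above the 40th percentile this held for 30 of 77 (39.0%), against 27.0%.

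The second comparison, 5% IH with control plasma, asks what the plasma of rats with neonatal hypoxia added. Differences were smaller here, for the chain as for all genes. Over the 86 genes the log2 ratio had a median of 0.0078 (49 higher, 37 lower), with a standard deviation over genes of 0.0565 against 0.102 over all genes and 0.0733 over those above the 40th percentile. It was -0.019 without the BN1 array of 5% IH and -0.0027 without the BN2 array of control, so its direction rests on single arrays. All 7 complex III genes, singled out after their values were seen, had ratios above 0, from 0.016 to 0.087. Their median was 0.051 (0.0090 without the BN1 array of 5% IH). Within BN1 7 were higher, with a median of 0.045, and within BN2 5 were, with a median of 0.022. The 7 include Uqcrq and Uqcr10, small accessory subunits, with log2 ratios of 0.087 (standard error 0.0900) and 0.086 (standard error 0.0853). Monocyte markers had a median log2 ratio of 0.13 in this comparison (0.13 in BN1, 0.12 in BN2), with Cd14 and Itgam higher by the criterion, and their part in these values was not tested. No complex III gene passed a test, and each limma adjusted p was 1. The other medians were -0.0014 for complex I subunits, 0.023 for complex I assembly factors, -0.0069 for complex II, 0.014 for complex IV and 0.010 for complex V.

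The criterion was met by 1 gene, Ndufaf1, an assembly factor of the membrane arm of complex I, which was higher, and by 0 that were lower, against 1.46% and 1.03% of all genes. Its log2 values were 4.47 and 4.54 with control and 4.94 and 4.61 with 5% IH plasma (BN1 and BN2). The groups did not overlap, and the probe set was dim. The log2 ratio was 0.26 (standard error 0.232, limma adjusted p = 1), close to the threshold of 0.263. It was 0.47 in BN1 and 0.063 in BN2, and 0.10 without the BN1 array of 5% IH. With autologous plasma the same probe set read 4.18 and 4.71. That gap between donors was wider than the one between 5% IH and control plasma within either donor. The log2 ratio of 5% IH to autologous plasma was 0.76 in BN1, wider still, and -0.099 in BN2. Of the 86, 0 passed limma, as did 0% of all genes, and 0 had an unadjusted p under 0.05, against 1.94%. The groups did not overlap in 15 (11 or 12.8% higher, 4 or 4.65% lower), against 25.5%. The 95% interval lay inside 1.2-fold for 44 of the 86 (51.2%), against 32.1% of all genes, and among genes above the 40th percentile for 43 of 77 (55.8%), against 45.5%.

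**Figure D2:**
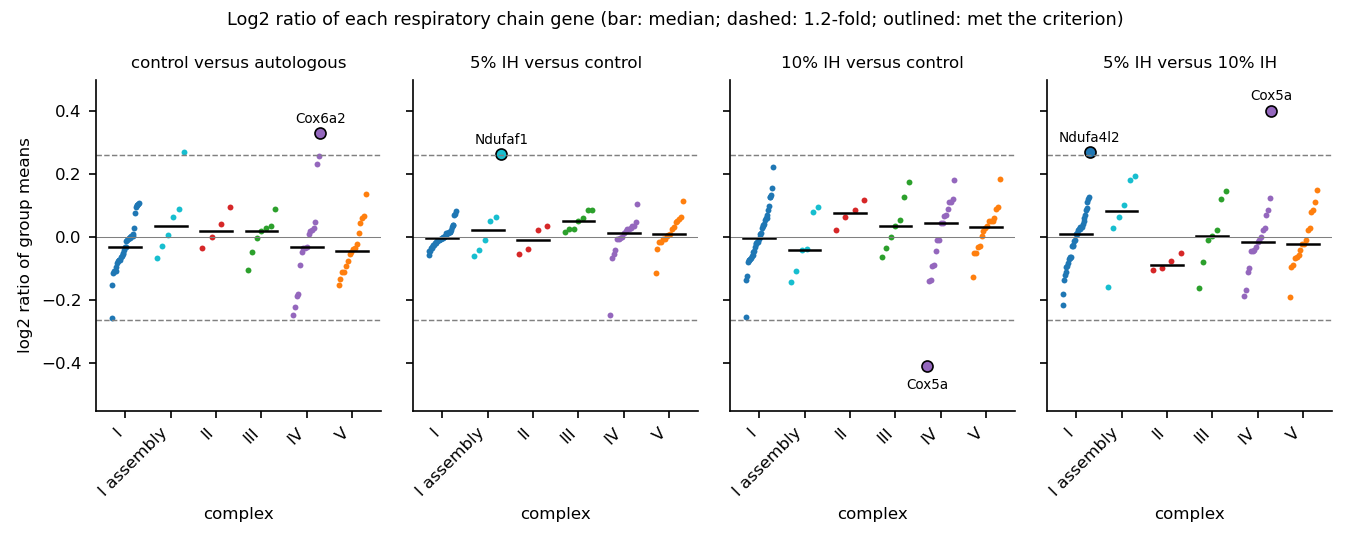
Each point is the log2 ratio of group means of 1 of the 86 genes (y axis) in 4 comparisons (panels), by complex (x axis); bars are medians, dashed lines mark 1.2-fold, and outlined, named points met the study's criterion. Of the 86 genes, 1 met it in each of the first 3 comparisons and 2 in the direct comparison of 5% IH with 10% IH, and the medians of the complexes lie between -0.086 and 0.085.

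With 10% IH against control plasma the median log2 ratio of the 86 was 0.021 (49 higher, 37 lower), and the standard deviation over genes was 0.0988 against 0.127 over all genes. It was 0.044 in BN1 and -0.0097 in BN2, and -0.021 without the BN1 array of 10% IH, so its direction rests on that array. The criterion was met by 0 genes that were higher and by 1, Cox5a, that was lower, against 2.04% and 2.26% of all genes. In limma 0 of the 86 passed, as did 0% of all genes, and Cox5a alone had an unadjusted p under 0.05 (1 of 86, or 1.16%, against 4.12%). The groups did not overlap in 24 (12 higher, 12 lower), or 27.9%, against 33.8%. The 95% interval lay inside 1.2-fold for 24 of the 86 (27.9%), against 22.8% of all genes, and above the 40th percentile for 24 of 77 (31.2%), against 30.3%, a share near that of genes of like level.

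Cox5a, a nuclear-encoded subunit of cytochrome c oxidase, was the only one of the 86 to meet the criterion in more than 1 comparison. Its log2 values were 5.87 and 5.86 with autologous, 6.28 and 5.96 with control, 6.14 and 6.09 with 5% IH and 5.67 and 5.75 with 10% IH plasma (BN1 and BN2). Both arrays of 10% IH lay below the other 6. Against control the log2 ratio was -0.41 (1.33-fold lower, standard error 0.113, limma adjusted p = 0.920), with -0.61 in BN1 and -0.21 in BN2, and -0.25 without the BN1 array of control plasma. With 5% IH plasma it was higher than with 10% IH plasma by 0.40 (standard error 0.113, limma adjusted p = 0.981), by 0.47 in BN1 and 0.34 in BN2. These 2 comparisons share the 10% IH arrays. A second probe set, which the annotation assigns both to Cox5a and to LOC100361008 and which was therefore not counted, read brighter (mean log2 value 10.6 against 5.95) and had log2 ratios of 0.041 for 10% IH with control and -0.038 for 5% IH with 10% IH. The difference was thus seen on 1 of the 2 probe sets that carry the name.

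Among the named isoforms of complex IV, Cox4i1, the widely used form of subunit 4, had log2 values of 11.1 and 10.8 with autologous, 10.7 and 10.8 with control, 10.8 and 10.7 with 5% IH and 10.9 and 10.9 with 10% IH plasma. Both arrays of 10% IH lay above those of control and 5% IH. The log2 ratio to control was 0.18 (standard error 0.116), under the threshold, with 0.22 in BN1 and 0.14 in BN2. Cox4i2, the isoform known to rise under low oxygen, had log2 ratios of 0.0023 with 5% IH and 0.046 with 10% IH against control (standard error 0.113). Its probe set was dim, under the 40th percentile. Control against autologous plasma gave it 0.23 (0.16 in BN1, 0.30 in BN2), also under the threshold. For Cox6a1, Cox6b1 and Cox8a, forms used in most tissues, ratios to control lay between -0.041 and 0.049 with 5% IH and between -0.043 and 0.12 with 10% IH. Cox7a2 had no probe set of its own, and the probe set it shares with Cox7a2l2 had 0.046 (5% IH) and 0.10 (10% IH). Cox7a2l, not taken as a structural subunit, had 0.030 and 0.044. The muscle or testis forms Cox6a2, Cox6b2, Cox7a1 and Cox8b, all dim here, ranged more widely, from -0.25 (Cox6b2) to 0.11 (Cox7a1) with 5% IH and from -0.14 to 0.11 with 10% IH, and none met the criterion. Between donors, BN1 minus BN2 ran with control plasma from -0.22 (Cox7a1) to 0.45 (Cox6b2) in this set, and for Cox6b2 it was 0.011 with 5% IH plasma.

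In complex I, Ndufa4l2, the isoform of Ndufa4 known as a target of hypoxia-inducible factor, met the criterion in the comparison of both IH plasmas, on a dim probe set. Its log2 values were 4.64 and 4.56 with autologous, 4.71 and 4.69 with control, 4.82 and 4.61 with 5% IH and 4.61 and 4.28 with 10% IH plasma. The BN2 array of 10% IH lay lowest. Between both IH plasmas it differed, 5% IH being higher, by 0.27 (standard error 0.124, limma adjusted p = 0.981), by 0.22 in BN1 and 0.32 in BN2, and by 0.11 without the BN2 array of 10% IH. Against control it was -0.25 with 10% IH, just under the threshold. Ndufa4 itself stood 0.032 (5% IH) and 0.040 (10% IH) above control, with a log2 value between 9.36 and 9.50 on all 8 arrays. In complex V, Atp5mc3, the only c-subunit gene with a probe set of its own, differed from control by -0.014 (5% IH) and 0.0060 (10% IH).

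In the direct comparison of 5% IH with 10% IH plasma, the median log2 ratio of the 86 was -0.0076 (41 higher, 45 lower). The 2 genes that met the criterion, Cox5a and Ndufa4l2, were higher with 5% IH, against 2.62% of all genes, and 0 were lower, against 1.85%. In limma 0 of the 86 passed, as did 0% of all genes, and 1 (Cox5a) had an unadjusted p under 0.05, or 1.16% against 4.05%. The groups did not overlap in 17 (12 higher, 5 lower), or 19.8%, against 32.4%, and for 27 (31.4%) the 95% interval lay inside 1.2-fold, against 23.6%.

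Complex II, succinate dehydrogenase, also an enzyme of the tricarboxylic acid cycle, showed how far 1 array can carry a group. Its 4 genes encode the flavoprotein (Sdha), the iron-sulfur protein (Sdhb) and 2 membrane anchors (Sdhc and Sdhd). The log2 values of Sdhd were 9.59 and 9.39 with autologous, 9.55 and 9.50 with control, 9.57 and 9.41 with 5% IH and 9.75 and 9.43 with 10% IH plasma. The BN1 array of 10% IH was the highest of the 8, and likewise for Sdhc (9.43, the other 7 at 9.14 to 9.29), Sdhb (9.56, the others at 9.27 to 9.45) and Sdha (10.04, the others at 9.81 to 9.99). All 4 had ratios to control above 0 with 10% IH, of 0.022 (Sdha), 0.088 (Sdhb), 0.12 (Sdhc) and 0.066 (Sdhd), with standard errors of 0.0903 to 0.127 and limma adjusted p from 0.944 to 0.987. None met the criterion. The median of the 4 was 0.19 in BN1 and -0.019 in BN2, and -0.020 without the BN1 array of 10% IH. Against 10% IH plasma, all 4 were lower with 5% IH, with a median of -0.086, which became 0.046 without that array.

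**Figure D3:**
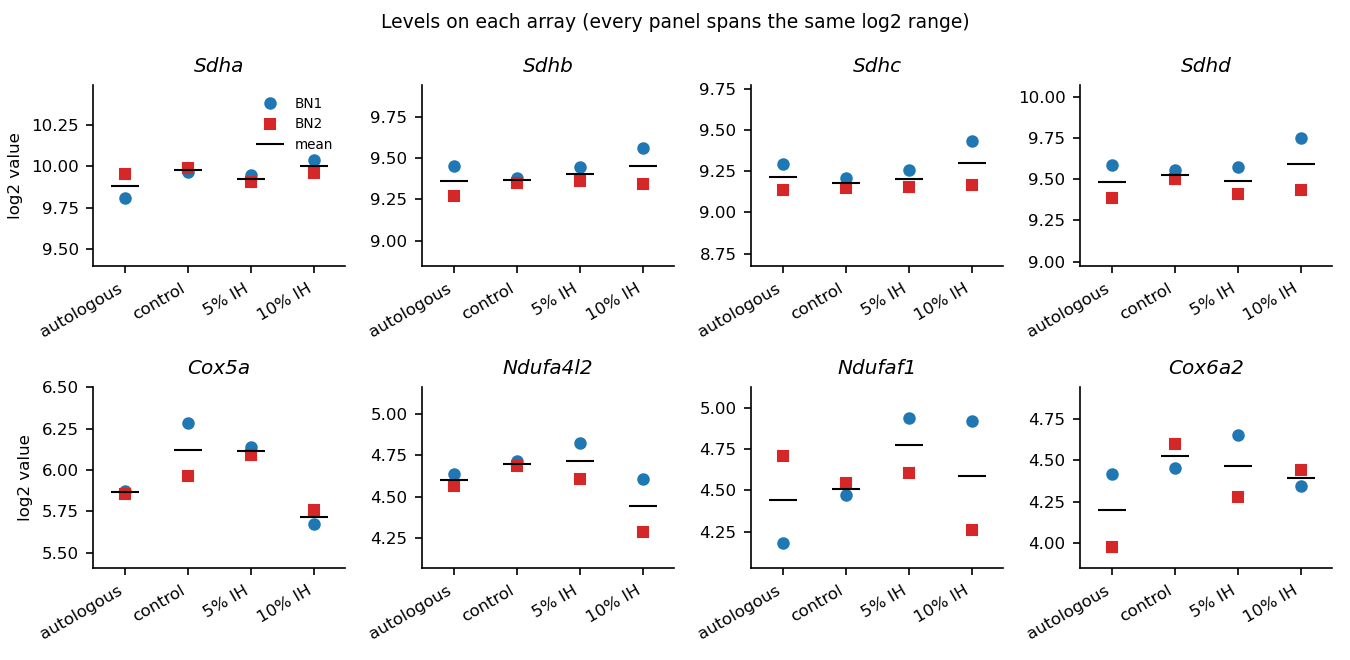
Log2 values (y axis) of the 4 complex II genes and of the 4 genes that met the criterion in any comparison, by plasma (x axis); circles are BN1, squares BN2 and bars the mean of both, and every panel spans the same log2 range. Both arrays of 10% IH lie lowest for Cox5a, whereas in complex II the BN1 array of 10% IH lies highest.

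On the same array genes of other complexes were past 1.2-fold too. Over both directions together the share was 10.5%, against 13.3% of all genes. It was smaller than over all genes for the genes that were lower, and not for those that were higher. Against the control array of the same donor, 9 of the 86 were past 1.2-fold in BN1 with 10% IH plasma (7 higher, 2 lower; all genes 7.22% and 6.12%), and 2 in BN2 (0 higher, 2 lower, against 4.12% and 4.69% of all genes). The 7 were Ndufaf1 (0.45), Ndufb8 (0.41), Atp5f1d (0.40), Ndufs7 (0.36), Uqcrfs1 (0.28), Ndufb11 (0.28) and Ndufaf3 (0.27), named here after their values were seen. Ndufb8 and Ndufb11 are accessory subunits of complex I, Ndufs7 carries one of its iron-sulfur clusters, Uqcrfs1 is the Rieske protein of complex III and Atp5f1d a subunit of the ATP synthase stalk. In BN2 the same genes had 0.031 (Ndufb8), -0.032 (Atp5f1d), -0.049 (Ndufs7), 0.071 (Uqcrfs1), -0.012 (Ndufb11), -0.074 (Ndufaf3) and -0.29 (Ndufaf1). None was past 1.2-fold higher in BN2. In the same pair of arrays the markers of platelets (4 measured) had a median log2 ratio of 0.23, those of erythroid cells (2 measured) of 0.33 and those of granulocytes (3 measured) of -0.32, and their part in these values was not tested. Within BN1 all 4 complex II genes were higher with 10% IH than with control plasma, whereas complex V had Atp5f1d at 0.40 but Atp5mpl, a small subunit, at -0.25. With 5% IH plasma 2 of the 86 were past 1.2-fold in BN1 (2.33%, against 6.35% of all genes) and 1 in BN2 (1.16%, against 7.48%).

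**Figure D4:**
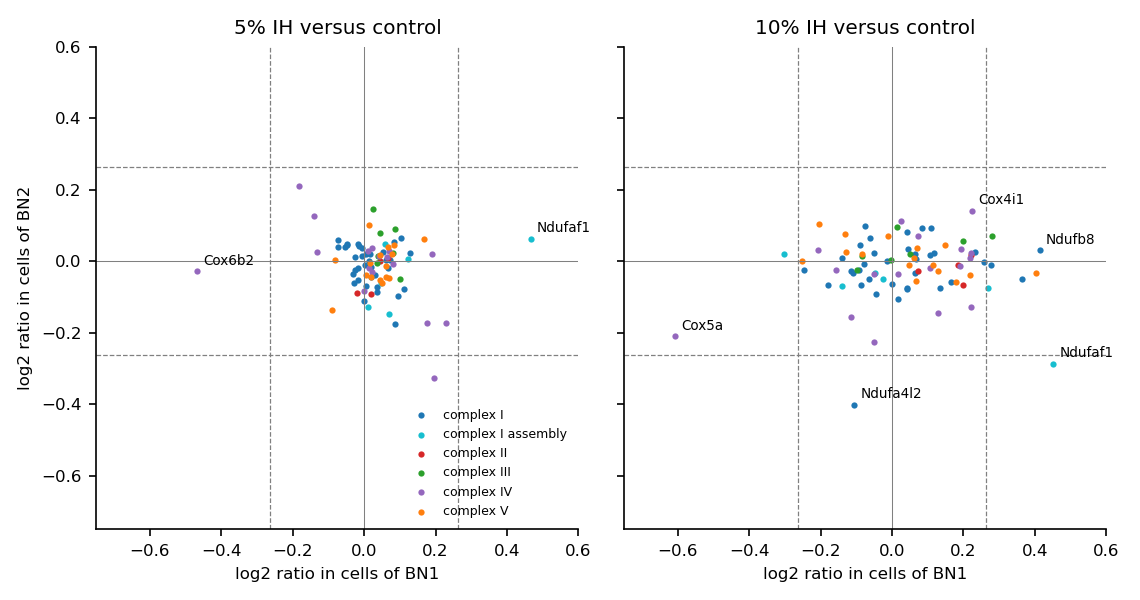
Each point is 1 of the 86 genes, with its log2 ratio to control plasma in cells of BN1 (x axis) and of BN2 (y axis), for 5% IH (left) and 10% IH (right); dashed lines mark 1.2-fold and colors the complexes. With 10% IH the points spread along the BN1 axis, where 9 genes (10.5%, against 13.3% of all genes) are past 1.2-fold. On the BN2 axis 2 are (2.33%, against 8.81%).

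The 2 reporter donors were also compared with each plasma, a comparison chosen after seeing the data. Values in BN1 were higher than in BN2 for 69 of the 86 genes with autologous, 54 with control, 74 with 5% IH and 61 with 10% IH plasma, by medians of 0.098, 0.027, 0.069 and 0.076 on the log2 scale. The lean was not found in every complex: with control plasma the median was -0.0074 for complex IV (7 higher in BN1, 10 in BN2) and 0.00027 for complex V (8 and 8), and with autologous plasma it was -0.0025 for the assembly factors (3 and 3). BN1 was higher with all 4 plasmas for 31 of the 86 (36.0%), against 11.7% of all genes, and BN2 was for 0, against 6.3%. Brighter genes in general leaned the same way: above the 40th percentile, BN1 was higher with all 4 plasmas for 16.7% of all genes and for 29 of the 77 respiratory chain genes (37.7%). Level was not matched here either: the median percentile was 88.0 for the 86 and 70.0 for the 8531 genes above the 40th percentile. The 31 comprised 17 of 36 complex I subunits, 2 of 6 assembly factors, 3 of 4 complex II genes, 4 of 7 complex III genes, 1 of 17 complex IV genes and 4 of 16 complex V genes. Per gene the differences were small. In a limma fit of plasma and donor together, the median of BN1 minus BN2 was 0.066 over the 86 genes. It was 0.013 over all genes and 0.031 over those above the 40th percentile. With any 1 array left out the median of the 86 was 0.061 to 0.079. After a further quantile normalization it was 0.041, and with each array centred on its median 0.083. The medians over all genes were not computed again under these alternatives. Of the 86, 0 had an adjusted p under 0.05, as did 0% of all genes, and 3 had an unadjusted p under 0.05 (3.49%, against 6.30%), namely Cox6b2 (0.34, standard error 0.101), Sdhd (0.18, standard error 0.0669) and Ndufaf5 (0.15, standard error 0.0629). The genes were read on the same arrays and are no independent replicates, and with 1 animal per donor the animal, its blood and the handling of its cultures cannot be told apart.

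**Figure D5:**
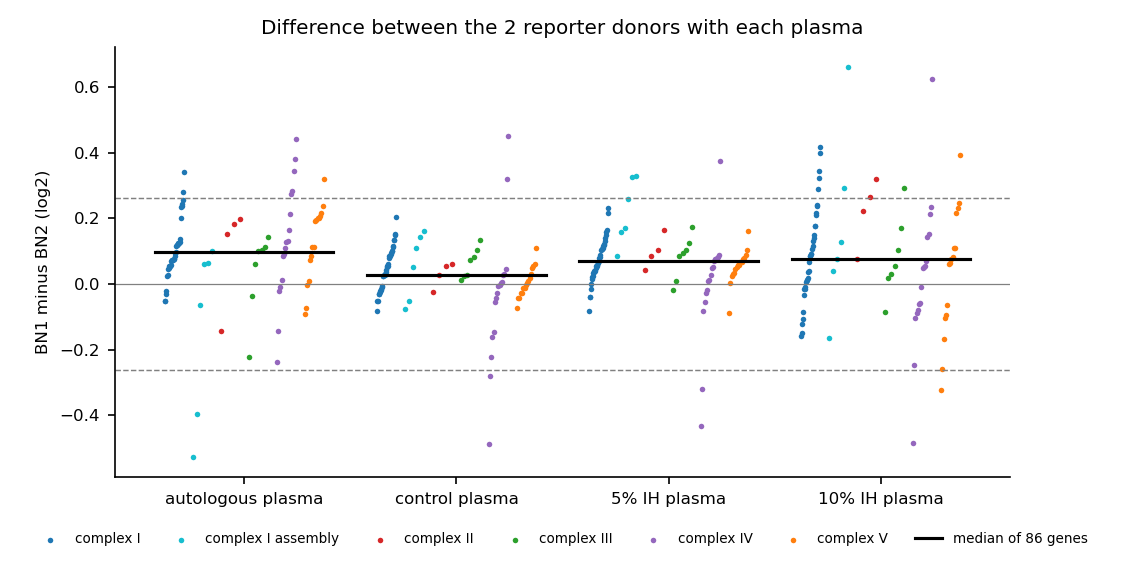
Each point is 1 of the 86 genes, as its log2 value in BN1 minus that in BN2 (y axis) with each plasma (x axis), colored by complex; black lines are medians and dashed lines 1.2-fold. The medians are above 0 with all 4 plasmas, from 0.027 with control to 0.098 with autologous plasma.

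Genes around the chain were followed through lists of carriers, assembly, supply and control. Of 9 carriers and inhibitors 6 were measured, of 13 genes of coenzyme Q synthesis 11, of 40 other assembly factors 36, of 18 genes of the tricarboxylic acid cycle and pyruvate dehydrogenase 14, of 20 regulators of mitochondrial gene expression 18, and 73 mitochondrial ribosomal proteins. With 5% IH against control plasma, 0 genes of these 6 lists met the criterion (all genes 1.46% higher and 1.03% lower), and list medians lay between -0.052 and 0.014. With 10% IH, 1 did (0.633%, against 2.04% higher and 2.26% lower), and medians lay between -0.027 and 0.049. The 1 was Pdha1, the catalytic subunit of pyruvate dehydrogenase, which admits pyruvate to the mitochondrial fuel supply. Its log2 values were 11.0 and 11.7 with autologous, 10.7 and 10.6 with control, 10.8 and 10.7 with 5% IH and 11.1 and 11.1 with 10% IH plasma. Both arrays of 10% IH lay above those of control and 5% IH. It was higher with 10% IH than with control by 0.43 and lower with 5% IH than with 10% IH (-0.35, standard error 0.179 for both, limma adjusted p = 0.920 and adjusted p = 0.981). With control against autologous plasma it was lower (-0.72, standard error 0.179, limma adjusted p = 0.120).

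With control against autologous plasma, 4 of the 158 measured genes of these lists rose by the criterion and 3 fell (2.53% and 1.90%, against 6.16% and 3.97% of all genes). Sdhaf1, which helps insert iron-sulfur clusters into complex II, had log2 values of 9.88 and 9.82 with autologous and 10.3 and 10.3 with control plasma. It rose by 0.45 (standard error 0.0873, limma adjusted p = 0.0411), the only gene of these lists past limma. The other 3 that rose were Esrra, a nuclear receptor known to drive respiratory chain genes (0.38), and the ribosomal proteins Mrps15 (0.31) and Mrps6 (0.29). Those that fell were Pdha1, Mrps18c (-0.40) and Ucp2, an inner membrane carrier abundant in immune cells (-0.35). Of the transcription factors whose motifs were looked for, Nrf1, Gabpa and Yy1 were in these lists. Between 10% IH and control, Nrf1 had a log2 ratio of -0.088, Gabpa -0.20 and Yy1 -0.080, beside a median absolute ratio of 0.074 over all genes. None of these 3 met the criterion in any of the 4 comparisons.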

How the data were processed

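The deposited log2 values were made by the authors with RMA (background correction, quantile normalization and probe summary) on Affymetrix rat genome arrays. Partek is named in the submitters' processing notes without role or version. RMA compresses changes of dim probe sets. The 8 arrays, 2 per plasma, were used as deposited (31042 probe sets, values 1.66 to 14.3, array medians 5.53 to 5.56), and their small number limits the precision. Genes were named through the platform annotation: 20826 probe sets with 1 symbol gave 14217 genes, each read from its brightest probe set, and 436 probe sets with several symbols were not named. Of these, 7 matched the respiratory chain names and were left out.

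Each comparison took the study's criterion, a Rank Product p (4 between-array ratios, 100 permutations, 1-sided, under 0.05, own implementation in Python 3.11.15) with a change over 1.2-fold, and limma 3.58.1 in R 4.3.3 (4 groups, Benjamini-Hochberg over all probe sets). Both were tested on simulated data. Named genes were those that met the criterion in the same direction in both donors, the Sdh subunits, the isoform families and the genes behind counts of 5 or fewer. The respiratory chain genes and the lists were chosen with earlier results of these data known. The replicate number is the reporter donor, so same-numbered arrays are paired, and deviations from the group means correlated across probe sets between -0.171 and 0.24 for same-donor arrays. Promoter sequences are RefSeq's (GRCr8). Alternatives were the donor as a block, other filters, folds and scalings, and each array left out.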

Additional observations from a re-analysis of the deposited data

Results flagged for a closer look

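For 2 genes of the chain the 5% IH and 10% IH plasmas differed by the study's criterion, and these were singled out for that alone. Arrays of the 2 plasmas without overlap were more common. They were seen for 12 of the 86 genes that were higher and 5 that were lower with 5% IH, and for 32.4% of all genes. For Cox5a the 5% IH arrays exceeded the 10% IH arrays by 0.40 on the log2 scale, and for Ndufa4l2 by 0.27, each in both donors. The brighter probe set shared by Cox5a and LOC100361008 had -0.038, and the value of Ndufa4l2 was 0.11 without the BN2 array of 10% IH. In limma neither difference passed (adjusted p = 0.981 for each). Groups of 2 arrays were too small to look for single arrays far from the rest of their group.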

How the results depend on the processing

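The count of genes that met the criterion for control with autologous plasma (1) became 0 with a 2-sided p, 0 without genes under the 40th percentile, 2 with the fold alone, 2 with the mean over probe sets, 2 with centred arrays and 2 after quantile scaling, and 2 to 5 with 1 array left out. Without dim genes it became 0 for 5% IH with control and 1 for 5% IH with 10% IH. With 1 array left out it was 0 to 3 for 5% IH with control, 0 to 6 for 10% IH with control and 1 to 6 for 5% IH with 10% IH. limma called 0 of the 86 genes under every alternative run, 11 in each of the 4 comparisons and 12 for the donors. With trended, robust variances the 95% interval lay inside 1.2-fold for 50 genes (control with autologous), 46 (10% IH with control) and 46 (5% IH with 10% IH). With 1 array left out, which widens the intervals by construction, it did for 1 to 9, 0 to 1, 1 to 7 and 1 to 10 genes in the 4 comparisons.

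With 1 array left out, the median log2 ratio of the 86 genes ran from -0.077 to 0.030 for control with autologous plasma, from -0.019 to 0.039 for 5% IH and from -0.021 to 0.052 for 10% IH with control, and from -0.041 to 0.032 for 5% IH with 10% IH. Against autologous plasma it ran from -0.067 to 0.038 for 5% IH and from -0.046 to 0.044 for 10% IH. For 5% IH with 10% IH it was 0.00093 after quantile scaling. With the donor as a replicate block the criterion counts were the same, and the paired median within BN1 was 0.033 (5% IH with control), 0.00073 (5% IH with 10% IH) and -0.025 (10% IH with autologous). The cause of these shifts was not tested. Of 76 log2 ratios of single named genes, 43 had both signs among the fits with 1 array left out. The 5 that met the criterion kept their sign, which was fixed in advance. Their groups did not overlap, so leaving out 1 array could not change it.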

Other observations

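Second probe sets of the same genes gave values of their own, and those past 1.2-fold are given here, chosen after their values were seen. A dim second probe set of Ndufa7 (mean log2 value 4.94) had log2 ratios of 0.40 for 5% IH and 0.37 for 10% IH with control, and -0.29 for control with autologous plasma. A second probe set of Uqcrc2 (mean 7.83) had 0.35 for 10% IH with control and 0.27 for 10% IH with autologous plasma. A dim second probe set of Atp5if1 (mean 3.86) had 0.30 for 5% IH with autologous plasma. A second probe set of Ndufaf7 had 0.29 for control with autologous plasma. Of the 7 probe sets with several symbols that match the respiratory chain names, 0 were past 1.2-fold.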
